A study of Mus musculus with 26 samples.

Results

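The genes described are those of the NAIP sensors and the inflammasome that acts in intestinal epithelium. They were taken by symbol from a fixed list of 10 mouse genes, which are Naip1, Naip2, Naip5, Naip6, Nlrc4, Nlrp6, Casp1, Casp4, Il18 and Gsdmd. All 10 were found among the 40481 genes of the spheroid table and of the crypt table, and all 10 passed the filter on low counts in both. In human Caco-2 cells the list comes to 7 genes of 55093, because humans have 1 NAIP gene, and 6 of the 7 passed the filter. The list was drawn up with the differences between knockout and wild type in these data known, so those differences are described for the members and no p-value is given for them.

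An inflammasome is a protein complex that forms in the cytosol when a sensor meets a microbial product. In the mouse, NAIP1 binds the needle protein of bacterial type III secretion systems, NAIP2 the inner rod protein, and NAIP5 and NAIP6 bind flagellin. A NAIP with its ligand recruits NLRC4, and the complex activates caspase-1, which cuts the cytokine interleukin-18 into its active form and cuts gasdermin D, whose free end makes pores in the cell membrane. Caspase-4 is the cytosolic receptor for lipopolysaccharide (in the mouse also called caspase-11) and cuts gasdermin D as well, and NLRP6 is a further sensor that is abundant in intestinal epithelium. In the intestine this pathway is known for the expulsion of infected epithelial cells.

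The study sequenced total RNA from 26 samples of 3 kinds, to ask what the loss of Fgfr1op does to intestinal epithelial cells. Fgfr1op (also called Cep43) encodes a centrosomal protein. The mouse samples were small intestinal spheroids, which are epithelial cultures in Matrigel with L-WRN conditioned medium, and cells enriched for crypts, the pockets at the base of the villi that hold the stem cells. The human samples were Caco-2, a colorectal adenocarcinoma line. The groups were 4 Fgfr1op KO and 4 wt spheroid samples, from 4 mice per genotype, at day 3 after hydroxytamoxifen. There were 6 Fgfr1op KO and 6 wt crypt samples (WT below), taken at day 6 or day 9 after tamoxifen. Last came 3 Caco-2 samples that carried a doxycycline-inducible lentiviral hairpin against Fgfr1op (shFgfr1op) and 3 with a non-targeting hairpin (scramble), at day 3 after doxycycline. Both genotypes of spheroid and crypt samples are labelled at times counted from hydroxytamoxifen or tamoxifen, and both Caco-2 groups had doxycycline. The driver of the recombinase, the deleted exons, the strain and the age of the mice are not given in the sources used here.

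The columns of the crypt table carry the genotype, a number between 1 and 6, and a second number whose meaning is not given. They carry no day, so days 6 and 9 stand together in each genotype, and the effect of the day cannot be told apart. Libraries are called here by their number between 1 and 6. On the first principal component of the 1000 most variable genes, which held 73.2% of the variance, KO libraries 4, 5 and 6 lay at -73.7, -91.4 and -78.3, the other KO libraries between -0.03 and 16.6 and the WT libraries between 29.6 and 40.0. The members' crypt differences are therefore also given within numbers 1 to 3 and within numbers 4 to 6 of both genotypes, a division chosen after the data were seen. In spheroids WT replicate 1 stood apart, at -39.0 against -7.03 to 14.1 for the others on a component with 31.4% of the variance. Total counts per library ran from 37281821 to 103352863. Epithelial markers (Epcam, Cdh1, Krt8, Krt18, Vil1 and Cdx2) summed to at least 4274 CPM (counts relative to the scaled library total) in every mouse library and to at least 7630 CPM in every Caco-2 library.

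Fgfr1op was lower in each knockout or knockdown group. In spheroids it had 17.5, 19.8, 14.99 and 17.2 CPM in KO, against 23.5, 23.3, 24.4 and 21.7 CPM in WT, and the groups did not overlap (exact two-sided permutation p = 0.0286, the smallest that 4 against 4 can give). In crypts KO ran from 11.7 to 25.9 with a median of 23.0 CPM and WT from 25.2 to 39.0 with a median of 34.6 CPM (exact permutation p = 0.00649). In Caco-2 the human gene ran from 6.43 to 7.26 CPM in shFgfr1op and from 15.5 to 15.9 CPM in scramble (exact permutation p = 0.1, the smallest that 3 against 3 can give).

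The 4 Naip genes lie side by side on mouse chromosome 13, within chr13:100144063-100452869 (mm10, GENCODE M21, all on the minus strand), with the pseudogene Naip3 between Naip6 and Naip1. They arose as copies of one another and still share sequence. Of the 50-base words in the transcripts of each, 68.5% for Naip1, 80.9% for Naip2, 63.1% for Naip5 and 78.5% for Naip6 occur in no other gene, against 98.9% to 100% for the other 6 members. At this length Naip5 shares most with Naip6, which holds 22.3% of the words of Naip5 (16.9% of those of Naip6), and the pseudogene Naip3 holds 22.5% of the words of Naip1 and 14.5% of those of Naip5. With words of 100 bases, Naip5 shares more with Naip3 (8.72%) than with Naip6 (6.44%). The sources used here do not state how reads that fit more than 1 place were counted, so the split of reads between Naip genes is uncertain. Casp1 (chr9:5298517-5307265) and Casp4 (chr9:5308828-5336783) are also neighbours, with a gap of 1562 bases.

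The sequences just before the start sites of the Naip genes are shown as a description, and their part in the levels of these genes was not tested. Each is the 250 bases before the RefSeq start (GRCm38.p6, minus strand), at chr13:100452865-100453114 for Naip1, chr13:100202123-100202372 for Naip2, chr13:100247337-100247586 for Naip5 and chr13:100316617-100316866 for Naip6. Capitals mark a pattern, CCTTTAAGAGGNGGNGC, that was read off the windows of Naip1, Naip2 and Naip5 and then searched on both strands. Its presence in those genes was therefore fixed in advance, and Naip6 was not used to make it.
Naip1: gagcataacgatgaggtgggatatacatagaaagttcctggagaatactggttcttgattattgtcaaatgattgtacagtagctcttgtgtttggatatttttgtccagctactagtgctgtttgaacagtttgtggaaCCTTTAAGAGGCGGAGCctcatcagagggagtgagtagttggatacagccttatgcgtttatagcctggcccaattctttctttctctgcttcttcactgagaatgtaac
Naip2: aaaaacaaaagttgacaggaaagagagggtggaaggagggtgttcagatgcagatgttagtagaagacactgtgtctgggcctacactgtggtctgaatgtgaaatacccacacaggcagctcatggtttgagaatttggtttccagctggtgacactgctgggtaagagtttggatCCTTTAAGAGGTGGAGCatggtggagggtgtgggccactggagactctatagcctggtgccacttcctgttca
Naip5: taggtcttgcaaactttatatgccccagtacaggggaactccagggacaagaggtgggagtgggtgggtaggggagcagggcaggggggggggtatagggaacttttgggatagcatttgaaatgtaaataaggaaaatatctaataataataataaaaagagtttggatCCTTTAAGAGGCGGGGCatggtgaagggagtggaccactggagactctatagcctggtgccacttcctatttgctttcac
Naip6: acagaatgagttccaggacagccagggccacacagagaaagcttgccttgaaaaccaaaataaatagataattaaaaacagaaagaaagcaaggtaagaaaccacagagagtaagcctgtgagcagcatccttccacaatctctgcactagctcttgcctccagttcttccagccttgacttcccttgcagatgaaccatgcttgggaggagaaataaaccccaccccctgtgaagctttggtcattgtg
The pattern begins at position -110 in Naip1, -73 in Naip2 and -80 in Naip5, counted back from the start. It is not in the window of Naip6, and over all 32851 windows of 300 bases around RefSeq starts (250 before and 50 after) it is found in 5, which is 0.0152%, the remaining ones being those of Pisd and Wfdc9. Naip2 and Naip5 also share an unbroken run of 34 bases across the windows, while the longest run that Naip6 shares with another Naip gene is 9 bases, with Naip1. The RefSeq start of Naip6 lies 1058 bases inside the gene as GENCODE draws it, and that of Naip5 lies 1013 bases outside, so the windows of these 2 genes depend on the annotation.

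Before the groups are compared, the levels per length of exon show how the genes stand to each other. In WT spheroids Gsdmd was the highest member, at 126.6 ± 10.5 CPM per kilobase (SD, n = 4), followed by Casp1 at 22.0 ± 3.78 and Naip1 at 20.6 ± 4.07, which do not differ beyond their spread. Next were Nlrp6 at 14.9 ± 5.98, Naip2 at 11.01 ± 1.11, Naip6 at 9.31 ± 1.29 and Nlrc4 at 8.14 ± 0.62, where neighbours in the order are within their spread except Naip2 and Naip6, which differ by more than either SD. Il18 (5.84 ± 2.58), Casp4 (5.34 ± 0.40) and Naip5 (3.92 ± 0.51) were lowest. In WT crypts Casp1 was highest at 141.9 ± 28.2 CPM per kilobase (SD, n = 6), then Gsdmd at 96.6 ± 23.0 and Il18 at 89.9 ± 44.6, and the lowest was Naip6 at 6.38 ± 1.53. The 2 tables were normalized separately, so levels were not tested across them.

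Among the 4 sensors, Naip1 had the largest mean share of the summed level per kilobase in all 4 mouse groups. Its share was 53.2% ± 5.22 in KO spheroids and 45.8% ± 2.40 in WT spheroids, and 37.2% ± 6.77 in KO crypts and 29.4% ± 1.26 in WT crypts (SD, n = 4 in spheroids and n = 6 in crypts). In crypts the ranges of Naip1 and Naip2 overlapped in both genotypes. In WT crypts Naip1 ran from 27.1% to 30.8%, Naip2 from 25.3% to 28.5% and Naip5 from 22.6% to 29.8%. The uncertain split of reads between Naip genes applies to all these shares. Naip6 held 14.3% ± 1.64 in KO spheroids and 20.8% ± 0.39 in WT spheroids, and Naip5 held 6.66% ± 0.74 and 8.76% ± 0.42 in these groups. In spheroids the shares of Naip5 and Naip6 were thus lower in every KO library than in any WT library. In crypts Naip5 held 18.4% ± 4.599 in KO and 26.4% ± 2.74 in WT, with ranges that met at 22.6% to 23.0%. Naip6 held 14.6% ± 3.50 (9.38% to 18.6%) in KO crypts and 17.5% ± 2.05 (14.1% to 19.4%) in WT crypts, a difference within the spread between libraries.

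**Figure D1:**
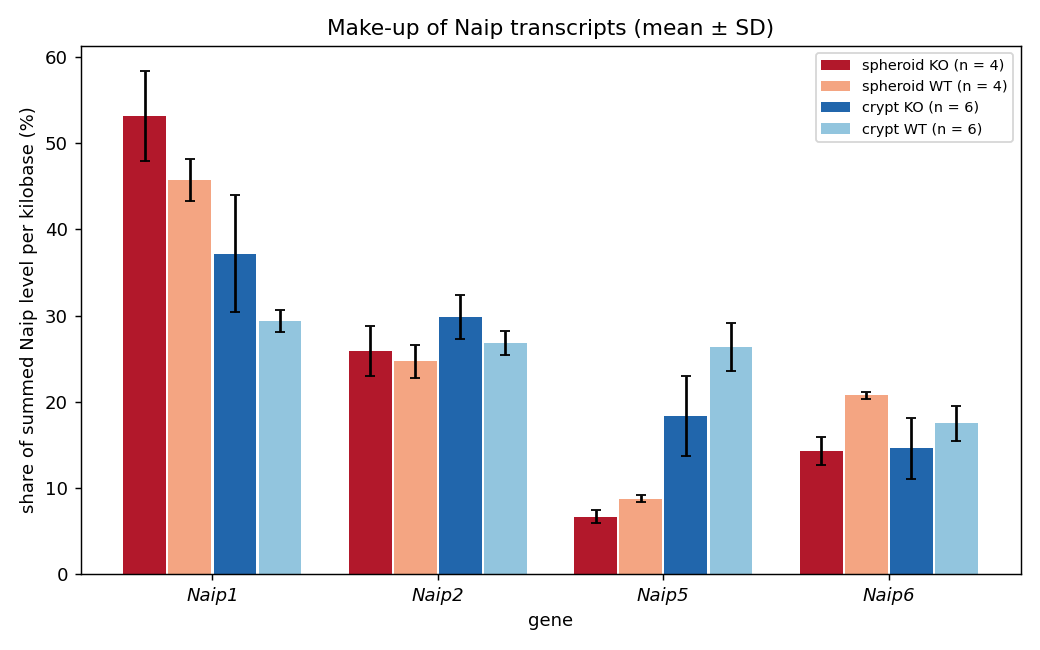
Share of each Naip gene in the summed level per kilobase of exon of the 4 Naip genes (percent, vertical axis) in KO and WT spheroids and crypts; bars are means and error bars SD over 4 or 6 libraries. Naip1 has the largest mean in every group, though in crypts its range overlaps that of Naip2. The shares of Naip5 and Naip6 are lower in KO spheroids than in WT spheroids, and in crypts the ranges of both overlap between KO and WT.

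In spheroids Naip5 and Naip6 did not overlap between the genotypes, while Naip1 and Naip2 did. Over all genes tested, groups did not overlap with KO lower for 4.02%. Naip5 and Naip6 share sequence, so their reads may not be fully told apart, and in crypts Naip2 was separate while Naip6 overlapped. Of the 4 Naip genes, Naip6 alone passed the test in spheroids, from which nothing is read, since the list was chosen on this contrast. Naip6 had 41.3, 33.4, 39.7 and 35.2 CPM in KO, against 75.2, 63.9, 61.1 and 54.0 CPM in WT. Every KO library was below every WT library, and the log2 fold change was -0.76 ± 0.11 (SE). Naip5 had 14.4, 11.95, 15.1 and 11.9 CPM in KO, against 24.1, 19.4, 20.2 and 17.8 CPM in WT. Here too the groups did not overlap (-0.61 ± 0.12). Naip1, at 95.6 to 130.4 CPM in KO and 87.5 to 142.6 CPM in WT, overlapped over nearly the whole range (-0.01 ± 0.14). Naip2, at 43.1 to 53.0 CPM in KO and 47.9 to 59.0 CPM in WT, overlapped as well (-0.14 ± 0.09). With the 4 genes summed, which leaves out Naip3 and any reads that were not counted, the level was 212.6 ± 13.4 CPM in KO spheroids and 251.5 ± 38.5 CPM in WT spheroids (SD, n = 4 each; log2 fold change -0.24 ± 0.10). In bulk RNA, fewer cells of a type and less RNA per cell cannot be told apart.

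Nlrc4, the adaptor that all NAIPs use, was at 46.2, 48.3, 41.3 and 40.4 CPM in KO spheroids and at 42.1, 39.4, 40.1 and 35.0 CPM in WT spheroids, with overlap and a log2 fold change of 0.17 ± 0.08. Nlrp6 varied most of the sensors. It had 56.7, 30.5, 47.6 and 36.1 CPM in KO, against 114.0, 69.7, 78.2 and 40.2 CPM in WT (-0.82 ± 0.32), so that WT replicate 4 fell within the KO range.

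Of the caspases, Casp1 had 29.0, 28.2, 27.8 and 22.5 CPM in KO spheroids and 40.6, 33.2, 30.9 and 27.2 CPM in WT spheroids (-0.29 ± 0.12), and Casp4 ran from 16.1 to 20.1 CPM in KO and from 18.6 to 21.9 CPM in WT (-0.19 ± 0.10). Both overlapped. Gsdmd, the pore-forming substrate, had 217.2, 184.8, 252.8 and 208.4 CPM in KO, against 333.3, 289.7, 274.8 and 305.6 CPM in WT. The groups did not overlap (-0.48 ± 0.10). Il18 was low and scattered, at 4.98 to 8.10 CPM in KO and 3.34 to 9.33 CPM in WT (0.13 ± 0.30).

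**Figure D2:**
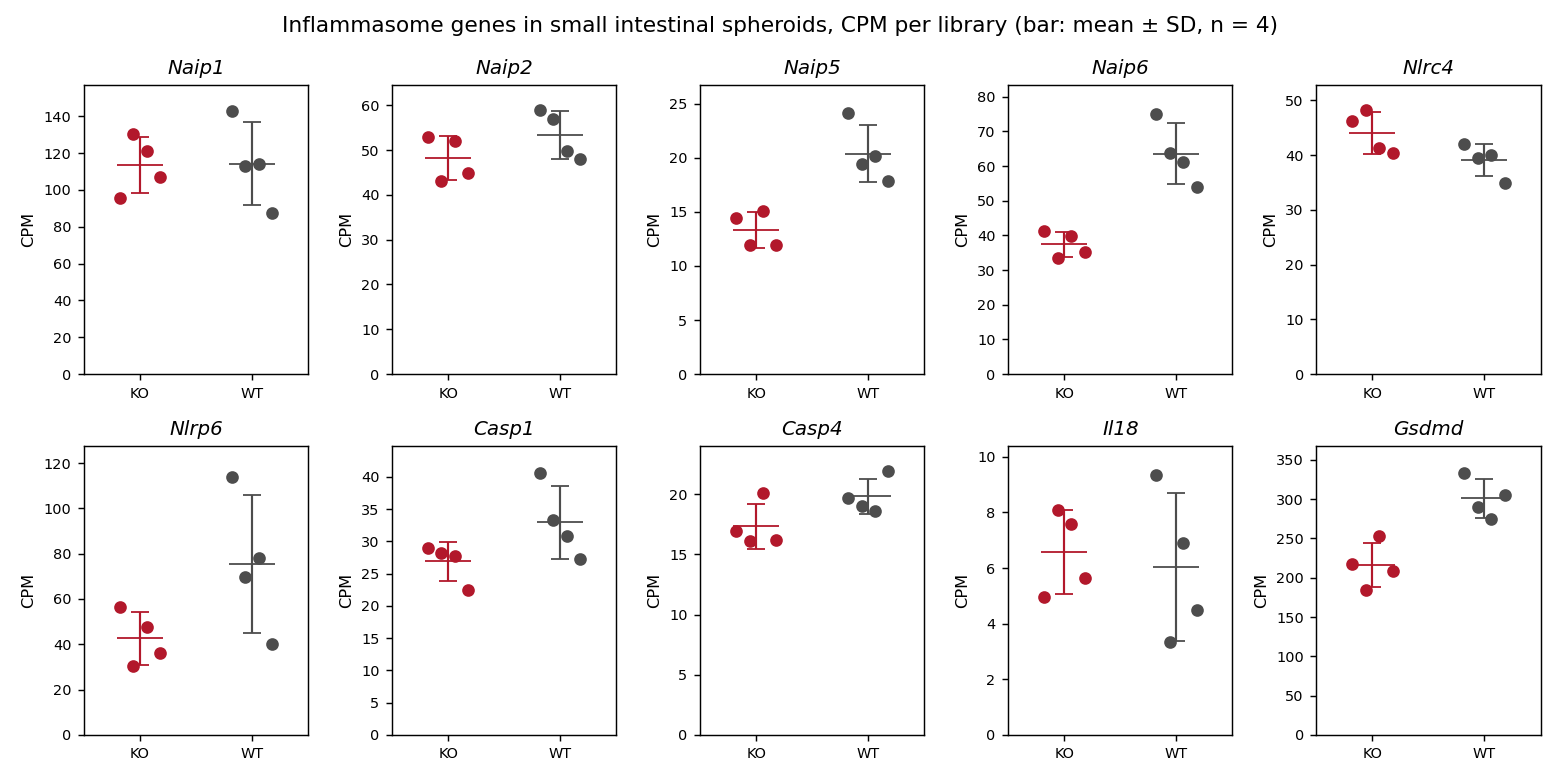
CPM (vertical axis, from 0) of each gene in each small intestinal spheroid library, KO left and WT right; points are libraries and bars mean ± SD (n = 4 each). KO and WT are separate for Naip5, Naip6 and Gsdmd and overlap for the other 7 genes.

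Over the 15915 genes tested in spheroids with edgeR's quasi-likelihood test, 0.232% were called at a Benjamini-Hochberg adjusted p below 0.05 and 0.0440% were called lower. Of the 10 members 1, Naip6, was called, and nothing is read from that, since the list was chosen on this contrast. The groups did not overlap, with KO lower, for 3 of 10 members and for 4.02% of all genes tested, and with KO higher for 0 members and 4.55% of genes. The median log2 fold change was -0.24 over the members. The call of Naip6 was kept in 3 of 8 fits that left out 1 library each, and was lost without KO replicate 2 or 4 or WT replicate 1, 2 or 3. Without WT replicate 1 the log2 fold change of Naip6 was -0.67. With 1 library left out, that of Casp1 ran from -0.38 to -0.18 and that of Il18 from -0.07 to 0.42, and neither was called. Immune cell transcripts were nearly absent from these cultures, with 12 of 15 markers below 1 CPM in every library, Gzma and Gzmb at 0, and sums of 20.7 to 44.2 CPM in KO and 22.0 to 47.8 CPM in WT. Stem cell markers (Lgr5, Olfm4, Ascl2 and Smoc2) summed to 91.0 to 148.8 CPM in KO and 153.6 to 169.3 CPM in WT, and their part in the differences was not tested.

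Of the other genes of the pathway, 48 were tested in spheroids and 1 was called. Rela, which encodes the p65 subunit of NF-kB, rose to 126.8, 133.1, 118.4 and 136.2 CPM in KO, against 84.8, 95.2, 93.0 and 97.2 CPM in WT (log2 fold change 0.47 ± 0.07, edgeR adjusted p = 0.0253). That call was lost in 7 of 8 fits with 1 library left out, and kept without KO replicate 3. Irf8, chosen after its values were seen, encodes a transcription factor on which the transcription of Naip genes in mouse macrophages depends. It had 22.8, 12.5, 24.6 and 20.9 CPM in KO against 43.1, 33.9, 37.5 and 27.8 CPM in WT, without overlap, and did not pass (-0.82 ± 0.21, edgeR adjusted p = 0.145). Pycard, which encodes the adaptor ASC and was also chosen after its values were seen, did not pass either (-0.50 ± 0.19, edgeR adjusted p = 0.289).

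In crypts, where RNA came straight from tissue, the KO median was below the WT median for every member but Nlrc4, whose highest libraries were KO. Casp1, Naip2 and Naip5 were lower in each of the 6 KO libraries than in any WT library. Within numbers 1 to 3 the differences were smaller for every member but Naip1 than within numbers 4 to 6. These sets were chosen after the data were seen, and the difference between them was not tested.

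Naip5 ran from 14.5 to 31.2 CPM in KO crypts with a median of 24.4, against 36.6 to 78.2 CPM in WT crypts with a median of 47.8. The groups did not overlap (-1.13 ± 0.22). Within numbers 1 to 3, KO libraries held 25.7 to 31.2 and WT libraries 36.6 to 50.2 CPM (-0.66 ± 0.22), and within numbers 4 to 6 KO held 14.5 to 23.2 and WT 41.5 to 78.2 CPM (-1.68 ± 0.27). Both sets thus put KO below WT. Naip6 ran from 14.4 to 33.0 CPM in KO and from 28.7 to 56.3 CPM in WT (-0.85 ± 0.22). KO library 1 lay above WT library 1, which was the lowest of its genotype. The log2 fold change was -0.47 ± 0.25 within numbers 1 to 3 and -1.30 ± 0.27 within numbers 4 to 6.

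Naip2 ran from 30.9 to 37.7 CPM in KO crypts and from 38.2 to 64.1 CPM in WT crypts, with no overlap by a narrow gap (-0.45 ± 0.13). Its log2 fold change was -0.33 ± 0.21 within numbers 1 to 3 and -0.60 ± 0.17 within numbers 4 to 6. Naip1 ran from 37.1 to 60.8 CPM in KO and from 45.3 to 83.3 CPM in WT (-0.27 ± 0.17), with -0.39 ± 0.21 within numbers 1 to 3 and -0.21 ± 0.20 within numbers 4 to 6. The 4 genes summed had 130.7 ± 12.8 CPM in KO crypts and 200.4 ± 45.7 CPM in WT crypts (SD, n = 6 each; -0.62 ± 0.15).

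Nlrc4 had a median of 91.4 CPM in KO crypts, between 56.0 and 121.7, and of 74.6 CPM in WT crypts, between 67.5 and 100.6 (0.22 ± 0.19). KO libraries 4, 5 and 6 were the highest of all, at 121.7, 114.5 and 106.7 CPM, while KO libraries 1 to 3 lay between 56.0 and 76.2 CPM. The log2 fold change was -0.12 ± 0.20 within numbers 1 to 3 and 0.42 ± 0.16 within numbers 4 to 6. Nlrp6 went the other way in the same libraries. It had 25.2 to 37.4 CPM in KO 4 to 6 against 94.4 to 133.2 CPM in WT 4 to 6 (-1.88 ± 0.20), and 76.9 to 114.6 CPM in KO 1 to 3 against 81.4 to 183.8 CPM in WT 1 to 3 (-0.46 ± 0.28). Over all 12 libraries its log2 fold change was -0.93 ± 0.39.

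Casp1 was separate between the genotypes. KO crypts ran from 100.4 to 137.3 CPM with a median of 104.8, and WT crypts from 172.9 to 277.5 CPM with a median of 192.9 (-0.90 ± 0.15). Its log2 fold change was -0.73 ± 0.21 within numbers 1 to 3 and -1.13 ± 0.17 within numbers 4 to 6. Casp4 overlapped, at 26.2 to 41.3 CPM in KO and 28.4 to 65.7 CPM in WT (-0.47 ± 0.21), with -0.24 ± 0.27 within numbers 1 to 3 and -0.75 ± 0.24 within numbers 4 to 6.

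The substrates overlapped between the genotypes. Gsdmd passed the test and Il18 did not, from which nothing is read, since the list was chosen on this contrast. Il18 had 18.7 to 67.0 CPM in KO crypts with a median of 38.4, and 24.9 to 144.9 CPM in WT crypts with a median of 91.6 (-1.16 ± 0.42). WT library 4, at 24.9 CPM, lay among the lowest KO libraries, and WT library 2, at 63.4 CPM, was also within the KO range. The log2 fold change of Il18 was -0.99 ± 0.29 within numbers 1 to 3 and -1.53 ± 0.49 within numbers 4 to 6. Gsdmd had 91.1 to 200.3 CPM in KO and 132.5 to 278.3 CPM in WT (-0.67 ± 0.22), and WT library 4 was the one within the KO range. The log2 fold change of Gsdmd was -0.38 ± 0.21 within numbers 1 to 3 and -1.10 ± 0.27 within numbers 4 to 6.

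**Figure D3:**
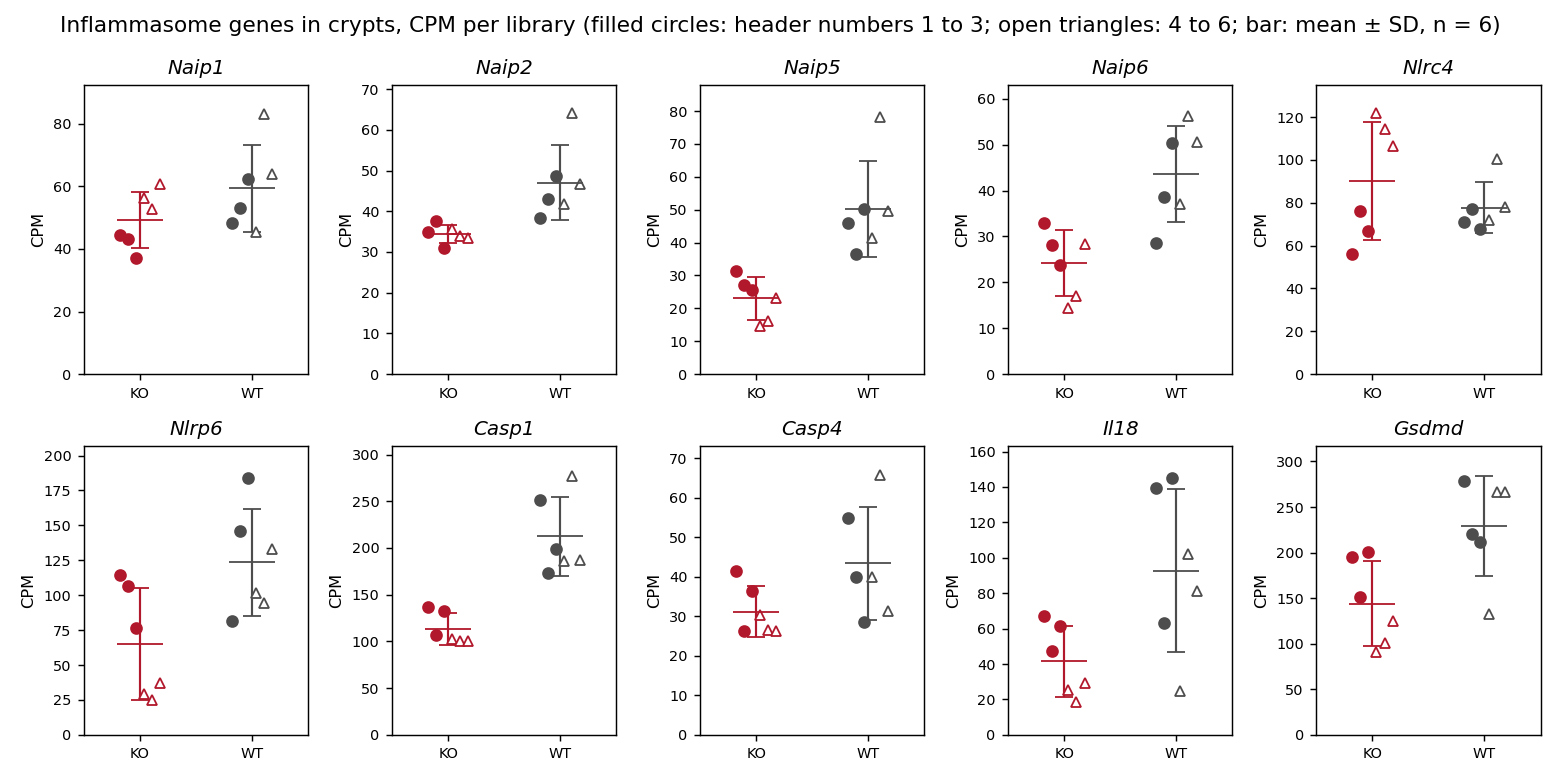
CPM (vertical axis, from 0) of each gene in each crypt library, KO left and WT right; filled circles are libraries numbered 1 to 3, open triangles those numbered 4 to 6, and bars mean ± SD (n = 6 each). KO and WT are separate for Naip2, Naip5 and Casp1, and in Nlrc4 the 3 open KO triangles lie above every WT library.

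The crypt comparison called 24.5% of the 16413 genes tested and called 10.5% lower. Of the 10 members 5 were called lower (Naip2, Naip5, Naip6, Casp1 and Gsdmd) and 0 higher, from which nothing is read, since the list was chosen on this contrast. With KO lower, groups did not overlap for 3 members and for 5.71% of all genes tested, and with KO higher for 0 members and 4.90% of genes. Within numbers 1 to 3, 0.677% of genes tested (0.302% higher and 0.375% lower) and 0 of 10 members were called. Within numbers 4 to 6, 21.4% of genes tested were called lower and 20.0% higher, and 8 of 10 members were called lower, all but Naip1 and Nlrc4, with 0 higher. Nothing is read from these counts either, since the list was chosen on this contrast and the sets after the data were seen. The call of Gsdmd was kept in 3 of 12 fits with 1 library left out, lost without KO library 2, 4, 5 or 6 and without WT library 1, 2, 3, 5 or 6. That of Naip2 was lost without KO library 5, while Naip5, Naip6 and Casp1 were called in all 12 such fits. Without 1 library, Nlrp6 was called lower (KO library 1), as were Casp4 (WT library 3) and Il18 (KO library 1, KO library 3 or WT library 4). These refits reuse the same libraries and the same chosen list, so they show only how far a call depends on 1 library.

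Marker sums of cell types differed along with these values, and their part in the differences was not tested. Stem cell markers summed to 14.3 to 30.0 CPM in KO 4 to 6 and to 472.6 to 952.2 CPM in KO 1 to 3, against 852.2 to 2059 CPM in WT. Paneth cell markers (Lyz1, Mmp7, Defa24 and Ang4) summed to 5584 to 8999 CPM in KO 4 to 6 and to 28649 to 38315 CPM in KO 1 to 3, against 24656 to 61363 CPM in WT. Enterocyte markers summed to 3174 to 6768 CPM in KO 4 to 6 and to 12550 to 28009 CPM in KO 1 to 3, against 11267 to 31660 CPM in WT. Tuft cell markers (Dclk1, Trpm5 and Pou2f3) summed to 3.47 to 5.03 CPM in KO 4 to 6 and to 10.6 to 13.3 CPM in KO 1 to 3, against 12.7 to 21.9 CPM in WT, and Dclk1 and Pou2f3 were called lower. Epithelial marker sums went the other way, at 10203 to 11548 CPM in KO 4 to 6. They were 6539 to 6801 CPM in KO 1 to 3 and 4274 to 6558 CPM in WT. Krt8 and Krt18 were called higher, and Krt8 alone held 5733 to 6399 CPM in KO 4 to 6. Vil1 was lower there, at 778.1 to 974.6 CPM, against 1099 to 2105 CPM in WT 4 to 6. Epcam and Cdx2 overlapped between KO 4 to 6 and WT 4 to 6. In the lists for goblet cells, enterocytes and the distal intestine, Spdef was called higher, Sis lower and Slc10a2 higher. Goblet sums were 2568 to 3438 CPM in KO and 2823 to 4501 CPM in WT. Distal sums were 166.0 to 905.8 CPM in KO and 145.0 to 671.0 CPM in WT. Proximal intestine marker sums were 208.2 to 714.5 CPM in KO 4 to 6 and 1098 to 2385 CPM in KO 1 to 3, against 1663 to 4566 CPM in WT. The proximal marker Slc40a1 went the other way in KO 4 to 6. Enteroendocrine sums were 100.4 to 149.3 CPM in KO 4 to 6 and 209.7 to 304.1 CPM in KO 1 to 3, against 140.6 to 391.1 CPM in WT. No marker of these 2 lists was called. Within numbers 4 to 6, the goblet marker Tff3 and the distal markers Cubn, Slc51b and Cd177 were lower in KO without overlap. Gp2 was higher there, and Fabp6, Muc2 and Agr2 overlapped. Immune markers, whose cells also express Casp1, Casp4, Il18 and Gsdmd, summed to 225.5 to 434.7 CPM in KO and 346.7 to 576.8 CPM in WT. Lyz2 had the highest mean among them, at 70.6 to 254.4 CPM in KO and 175.2 to 436.0 CPM in WT. Of the 14 immune markers tested 1 was called, Cd68, which was higher, and none of the 15 was at 0 in all libraries. Cd3e, Cd8a, Cd7, Gzma, Gzmb and Lyz2 had log2 fold changes of -0.74 to -0.49, and Cd79a, Jchain, Igkc, Csf1r, Adgre1 and Itgax of 0.41 to 2.27, none of which passed. Some were high in KO 4 to 6, such as the macrophage marker Adgre1, at 0.62 to 4.46 CPM in KO 4 to 6 against 0.05 to 0.43 CPM in WT 4 to 6, and the neutrophil marker S100a8, at 0.52 to 2.27 CPM in KO 4 to 6 and at most 0.01 CPM in WT 4 to 6.

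Other genes of the pathway changed in both directions in crypts. Of 51 tested 7 were higher and 17 lower, where RLE size factors gave 4 higher and 18 lower. Over all genes tested 14.0% were called higher, which is about the share among these, and 10.5% were called lower. Counts over the lists were 4 of 5 other caspases lower and 1 higher, 4 of 6 further gasdermin and membrane rupture genes lower, 3 of 5 guanylate-binding and immunity-related GTPases lower, 3 of 4 eicosanoid enzymes lower, and 3 of 12 adaptors and regulators higher with 1 lower.

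The largest rise among these genes was in Il1rn, which encodes the interleukin-1 receptor antagonist. It had 288.4, 307.6 and 191.6 CPM in KO 4 to 6 and 7.0 to 10.4 CPM in KO 1 to 3, against 0.50 to 1.35 CPM in WT (log2 fold change 7.34 ± 1.17, edgeR adjusted p = 0.00251), and it was also called within numbers 1 to 3 (3.57 ± 0.33). Ripk3, a kinase of necroptosis, rose to a range of 157.5 to 427.3 CPM in KO, against 106.5 to 154.9 CPM in WT (1.23 ± 0.21, edgeR adjusted p = 0.00255). Casp6, an executioner caspase, fell to 73.3 to 255.2 CPM in KO, against 314.9 to 696.8 CPM in WT (-1.73 ± 0.34, edgeR adjusted p = 0.0048), and its call was kept in both sets of numbers. Irgm1, an interferon-induced GTPase, fell by 0.98 on the log2 scale (SE 0.18, edgeR adjusted p = 0.00367) and the transcription factor gene Irf1 by 0.83 (SE 0.18, edgeR adjusted p = 0.00602). Alox5, which encodes the 5-lipoxygenase of leukotriene synthesis, was at 0.59 to 3.60 CPM in KO and 4.59 to 12.9 CPM in WT (-2.09 ± 0.45, edgeR adjusted p = 0.00681). Ripk3, Irgm1, Irf1 and Alox5 were not called within numbers 1 to 3, where their log2 fold changes were 0.77, -0.81, -0.83 and -0.81. Irf8 overlapped in crypts, at 20.2 to 47.7 CPM in KO and 37.3 to 57.7 CPM in WT. It did not pass (-0.39 ± 0.19, edgeR adjusted p = 0.136). Its log2 fold change was -0.51 ± 0.30 within numbers 1 to 3 and -0.29 ± 0.15 within numbers 4 to 6.

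A further gasdermin family, chosen after its values were seen, had the largest falls among the pathway genes called. Gsdmc4 had 0 to 0.27 CPM in KO 4 to 6 and 13.9 to 28.5 CPM in KO 1 to 3, against 95.4 to 640.5 CPM in WT (-4.62 ± 1.39, edgeR adjusted p = 0.0316), and Gsdmc2 had 0 to 0.21 and 7.9 to 14.9 CPM in the same KO sets, against 51.0 to 276.7 CPM in WT (-4.37 ± 1.28, edgeR adjusted p = 0.0284). Gsdmc3 had 0 to 0.03 CPM in KO 4 to 6 and 1.95 to 4.62 CPM in KO 1 to 3, against 18.0 to 115.8 CPM in WT (-4.84 ± 1.23, edgeR adjusted p = 0.0161), and Gsdmc at most 0.36 CPM in KO, against 1.16 to 5.43 CPM in WT (-4.09 ± 0.92, edgeR adjusted p = 0.00917). Gsdmc3 and Gsdmc were called in all 18 alternative fits, and all 4 genes were called within numbers 1 to 3 (-2.67 to -2.22). Without WT library 5 neither Gsdmc4 nor Gsdmc2 was called, and Gsdmc4 was also not called without KO library 4 or WT library 4. Shared sequence between these genes was not measured, so how far their reads can be told apart is not known. Pycard, again chosen after its values were seen, had 120.8 to 178.9 CPM in KO 4 to 6 and 537.0 to 587.3 CPM in KO 1 to 3, against 607.6 to 999.5 CPM in WT, without overlap, and did not pass over all 12 libraries (-1.05 ± 0.40, edgeR adjusted p = 0.0726). Within numbers 1 to 3 it was not called (-0.55 ± 0.21), and within numbers 4 to 6 it was called lower (-2.17 ± 0.18).

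In Caco-2 NLRC4, NLRP6 and CASP1 were below 1 CPM in every library, and NAIP and CASP4 were between 1 and 4 CPM. NAIP had 1.39, 1.58 and 1.85 CPM in shFgfr1op and 1.93, 1.18 and 1.26 CPM in scramble, from 53 to 82 counts a library, with overlap (log2 fold change 0.16 ± 0.25). NLRC4 was at 0.18 to 0.47 CPM in shFgfr1op and 0.27 to 0.41 CPM in scramble (-0.26 ± 0.54), and NLRP6 at 0.10 to 0.45 and 0.22 to 0.51 CPM in these groups (-0.63 ± 0.58). CASP1 had 0.10, 0.11 and 0 CPM in shFgfr1op and 0.16, 0.12 and 0.22 CPM in scramble, without overlap, and did not pass the filter on low counts. PYCARD was at no more than 0.08 CPM in any library.

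IL18 was the 1 member tested whose groups were separate. It had 16.4, 18.3 and 14.7 CPM in shFgfr1op, against 24.9, 22.7 and 24.0 CPM in scramble, and the groups did not overlap (-0.53 ± 0.08). It was called lower in all 10 alternative fits, which reuse these libraries, and nothing is read from that, since the list was chosen on this contrast. GSDMD was nearly equal in all 6 libraries, at 50.8, 52.5 and 52.6 CPM in shFgfr1op and 53.4, 51.4 and 52.6 CPM in scramble (-0.01 ± 0.05). CASP4 ran from 2.32 to 3.32 CPM in shFgfr1op and from 2.54 to 3.07 CPM in scramble (0.04 ± 0.18).

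**Figure D4:**
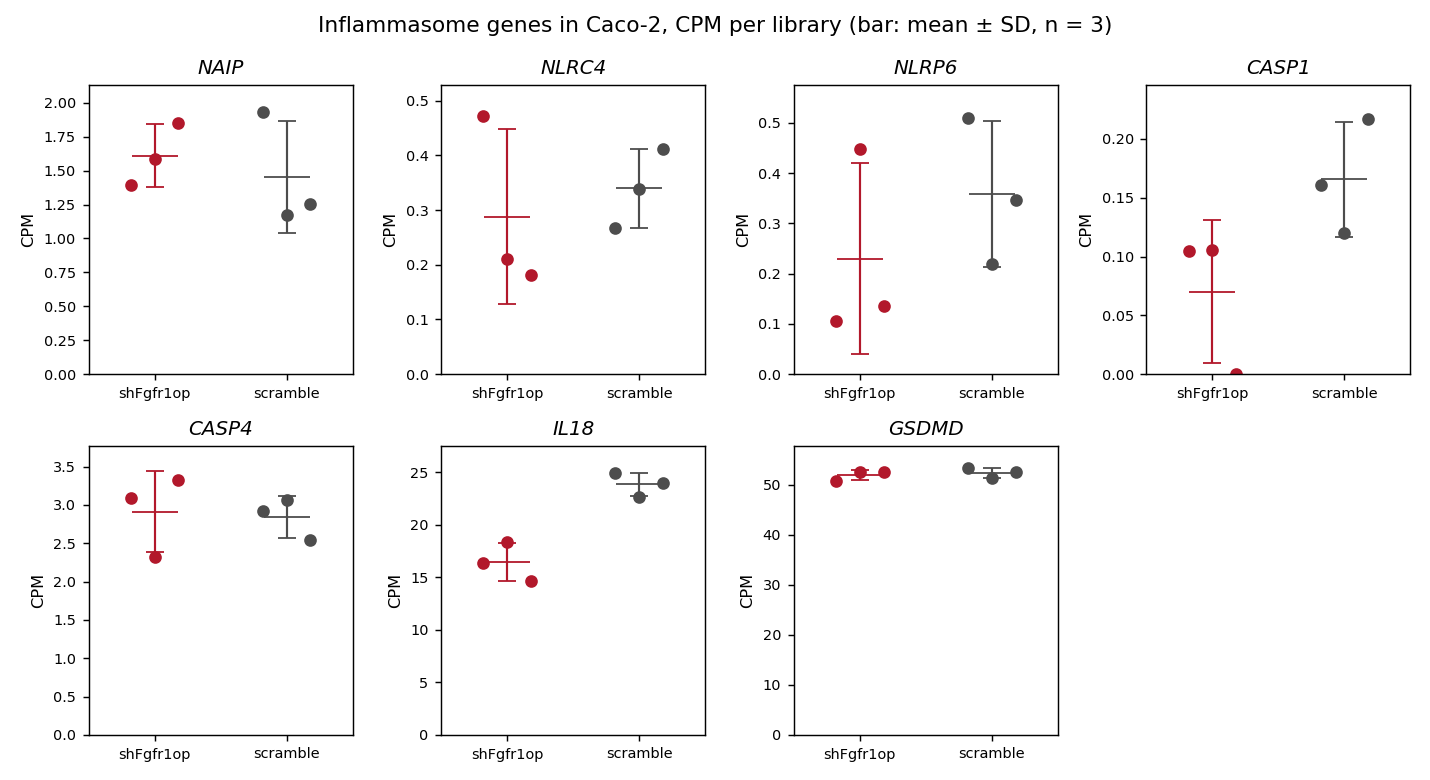
CPM (vertical axis, from 0, a scale of its own in each panel) of each human gene in each Caco-2 library, shFgfr1op left and scramble right; points are libraries and bars mean ± SD (n = 3 each). The groups are separate for IL18 and, at values near 0, for CASP1, and the values of NLRC4, NLRP6 and CASP1 are all below 1 CPM.

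The Caco-2 comparison called 31.9% of the 18905 genes tested, with 16.2% of genes tested lower and 15.7% higher. Groups did not overlap, with shFgfr1op lower, for 21.5% of genes tested. Of the 6 members tested 1 was called, IL18, against that high background and from a list chosen on this contrast, so nothing is read from the count. Enterocyte markers summed to 1038 to 1194 CPM in shFgfr1op and to 1961 to 1997 CPM in scramble, and their part in the difference of IL18 was not tested. Separate cultures are not mentioned in the labels of these samples, so the p-values for Caco-2 reflect the spread between samples, which may be technical.

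Of 35 other pathway genes tested in Caco-2, 7 were higher and 11 lower. Over all genes tested 15.7% were called higher and 16.2% lower, and groups did not overlap with shFgfr1op lower for 21.5%. TXNIP, which encodes thioredoxin-interacting protein, a partner of NLRP3, fell to 18.7, 17.9 and 18.9 CPM in shFgfr1op, against 31.5, 29.3 and 31.2 CPM in scramble (-0.73 ± 0.07, edgeR adjusted p = 1.18e-12). GSDME, another pore-forming gasdermin, fell by 0.41 on the log2 scale (SE 0.06, edgeR adjusted p = 4.42e-07), and PTGS2, the inducible prostaglandin synthase, fell by 0.49 (SE 0.09, edgeR adjusted p = 1.16e-05). Of the 6 transcription factors on the list 4 fell, among them IRF1 (-0.50 ± 0.08, edgeR adjusted p = 3.06e-06) and IRF8 (-0.27 ± 0.05, edgeR adjusted p = 6.89e-05). In TXNIP, GSDME, PTGS2, IRF1 and IRF8 the shFgfr1op libraries were all below the scramble libraries, and the calls held in all 10 alternative fits.

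The plot of fold changes sets the systems side by side. Every member but Nlrc4 and Il18 had a log2 fold change below 0 in spheroids and in both sets of crypt libraries, though that of Naip1 in spheroids (-0.01 ± 0.14) was within its error. Il18 was below 0 in both sets of crypts and in Caco-2 but not in spheroids, where it was 0.13 ± 0.30. Nlrc4 was the one member above 0 in spheroids and in crypts numbered 4 to 6, and it was -0.12 ± 0.20 in crypts numbered 1 to 3. The list was chosen on these contrasts and the crypt sets after the data were seen, so nothing is read from a shared direction.

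**Figure D5:**
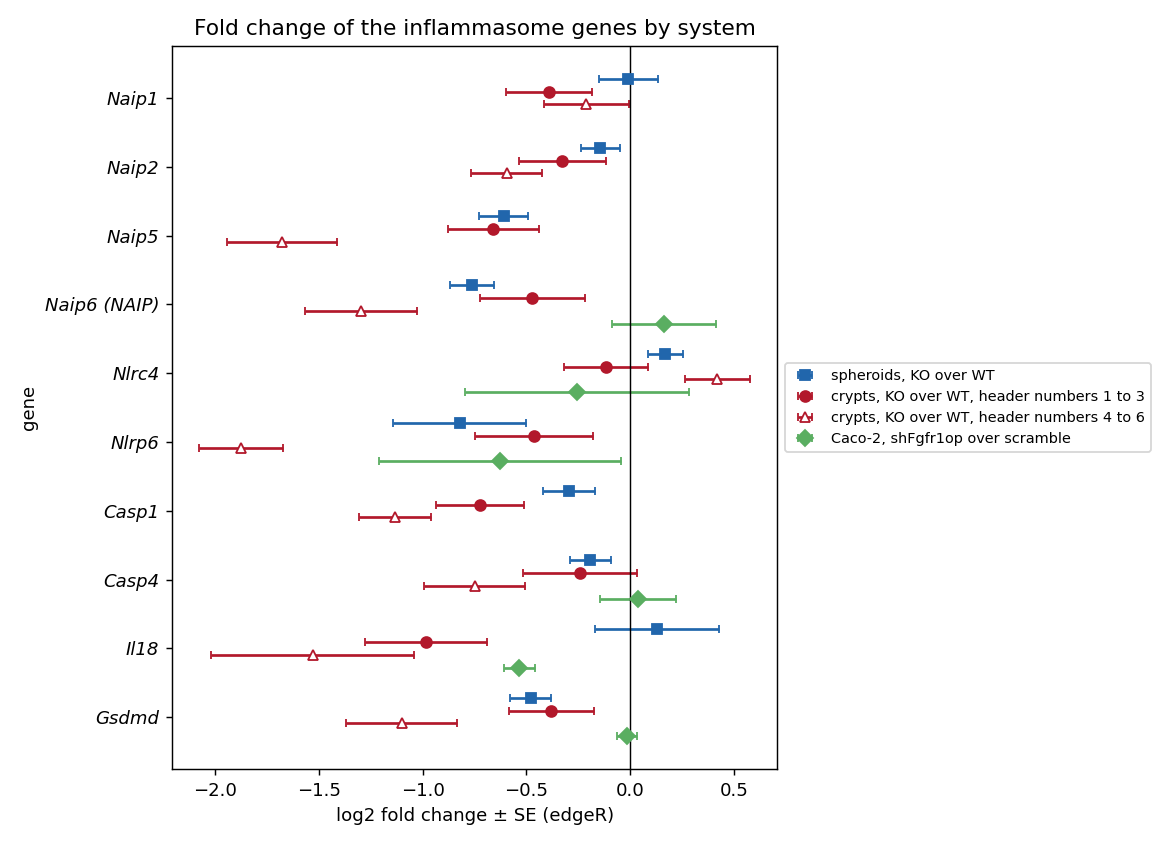
Log2 fold change (horizontal axis; KO over WT, or shFgfr1op over scramble) of each gene with its SE as bars, in spheroids (squares), crypts numbered 1 to 3 (circles), crypts numbered 4 to 6 (open triangles) and Caco-2 (diamonds, with human NAIP in the row of Naip6). Naip2, Naip5, Naip6, Nlrp6, Casp1, Casp4 and Gsdmd lie left of 0 in each mouse comparison, and the triangles of Naip5 (-1.68) and Nlrp6 (-1.88) lie farthest left.

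The genes whose log2 CPM followed Naip6 most closely were found among those that averaged at least 2 on the log2 CPM scale. These are descriptions over libraries that share the genotype difference. In the 8 spheroid libraries the first was its neighbour Naip5 (Pearson r = 0.98), followed by Slc7a4, Engase, Ppargc1a and Lpar1 (0.97 to 0.98). In the 12 crypt libraries the 5 closest included Map3k13, Heatr5a, Hps5 and Naip5 (0.93 to 0.94). Naip5, whose transcripts share words with those of Naip6, was the one gene in both sets of 5. For NAIP in the 6 Caco-2 libraries they were RALGDS (0.99), FRG1BP, IGSF8, CTSA and ZNF133 (0.96 to 0.98).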

How the data were processed

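RNA sequencing counts came as 1 table for each of spheroids, crypts and Caco-2. The authors deposited raw counts of reads per gene. STAR, DESeq2 and build mm10 are named per the submitters' processing notes, without versions. The sources used here state neither the strand setting nor the handling of multiply mapped reads, nor the build behind the human identifiers of the Caco-2 table. Spheroid columns were matched by title, Caco-2 columns by the hairpins' catalogue numbers and crypt columns by genotype. Entries that repeated an identifier were removed (276, 276 and 116). Replicate libraries differed by more than sampling noise (chi-square per degree of freedom of at least 3.98).

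Each table was fitted on its own with edgeR 4.0.16 (R 4.3.3): filterByExpr, TMM, robust quasi-likelihood F test and Benjamini-Hochberg adjustment over all genes tested, called at an adjusted p below 0.05. SE is the log2 fold change divided by the square root of F. CPM values use TMM-scaled totals. The fit was tested on simulated data. Transcript words, exon lengths and positions come from GENCODE M21, promoter windows from RefSeq (GRCm38.p6); 9 of 10 members matched there.

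The members and gene lists were chosen with earlier results of these data known. All members are named; of other pathway genes, those called, at most 6 by smallest p in each comparison; and the 5 genes most like Naip6 or NAIP by Pearson r. Some genes that these rules take are not reported here; counts include them. Alternatives were RLE factors, no filter, DESeq2 1.42.0, each library left out, the replicate number as a block, the Naip genes summed and, added after seeing the data, the crypt number sets.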

Additional observations from a re-analysis of the deposited data

Results flagged for a closer look

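Within the groups of 4 to 6 mouse libraries, 2 values stood far from the rest of their group by the gap to the nearest library relative to the group's range (Dixon's criterion at 95%), and both came from WT crypt library 5. Naip5 was at 78.2 CPM there, where the other WT crypts ran from 36.6 to 50.2 CPM. Nlrc4 was at 100.6 CPM there, where the other WT crypts ran from 67.5 to 77.8 CPM. Chance alone flags about 1 in 20 groups, and 40 groups were examined. Without WT library 5 Naip5 remained called lower.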

How the results depend on the processing

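In spheroids 37 genes were called. The count was 154 with no filter on low counts, 566 with DESeq2, 71 with the replicate number as a block, and 3 to 160 with 1 library left out. Members called numbered 1 in the main fit, 3 with no filter and 3 with DESeq2 (Naip5, Naip6 and Gsdmd), 2 with the replicate block, and 0 to 3 with 1 library left out. Other pathway genes called were 1, against 5 with DESeq2 and 0 to 3 with 1 library left out. Fgfr1op, not called in spheroids (-0.42), was called with DESeq2 (-0.42, adjusted p 0.00622), and its range with 1 library left out was -0.49 to -0.35. Deviations of like-numbered spheroid libraries correlated at -0.03 to 0.10 and those of Caco-2 at 0.00 to 0.04. The labels give only a number, and these correlations cannot exclude a pairing. In Caco-2 the replicate block moved no count by over 1.5 times.

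In crypts, leaving out 1 library gave 3 to 7 members, 15 to 29 other pathway genes, 2749 to 5005 genes in all and -0.74 to -0.52 for Fgfr1op, whose call was lost without WT library 2 or 6. Numbers 1 to 3 alone gave 112 genes, 0 members, 6 other pathway genes and an uncalled Fgfr1op (-0.72); numbers 4 to 6 alone gave 6915 genes and 8 members. These fits use fewer samples; beyond that, the cause of the shifts given here was not tested. With the number set as a covariate 7 members were called. No called value changed sign in any alternative. In Caco-2 NLRC4 and NLRP6 rest on 4 to 19 counts a library (SE 0.54 and 0.58) and CASP1 on 0 to 10.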
